A study of Mus musculus with 6 samples.

Results

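The genes described here make, trim, crosslink or protect the extracellular matrix: the matrix metalloproteinases (Mmp), their tissue inhibitors (Timp), the Adam and Adamts families, the lysyl oxidases (Lox), the lysyl hydroxylases (Plod) and the prolyl hydroxylases (P4ha). The rule that chose them reads gene symbols alone, and it leaves out Mmp7. Of the 12393 genes with a probe set annotated to them alone, 65 were members, on 99 probe sets. A filter on low signal was passed by 19 of these genes and 29 of their probe sets, out of 7919 genes in all. The set holds more than enzymes of the matrix, since the Timp genes encode inhibitors, the ADAMTS-like genes encode proteins without a protease domain, and many Adam genes serve in the male reproductive tract. No one-gene probe set carried a symbol starting with Serpine, and Loxl2 had no probe set of its own, so neither was analysed here.

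The matrix metalloproteinases are secreted or membrane-bound enzymes that cut collagens, basement membrane proteins and other matrix components, and the Timp proteins bind and block them. Adam proteases mostly cut the outer parts of membrane proteins free from the cell, while Adamts proteases act in the matrix. Prolyl and lysyl hydroxylases modify collagen chains inside the cell before secretion, and lysyl oxidases link collagen and elastin outside it. In the gut wall much of this machinery is made by fibroblasts, muscle cells, endothelium and macrophages beneath the epithelium.

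RNA of the ileum, the last stretch of small bowel, was hybridised to 6 Affymetrix arrays, 2 per group. All mice were male, on a mixed C57BL/6:129Sv background, and 8 to 10 months old. The Sham_Vehicle group had a sham operation and vehicle by gavage. The BDL_Vehicle group had the common bile duct ligated, which keeps bile out of the gut, and vehicle. Mice of the BDL_GW4064 group were ligated in the same way and received GW4064, a synthetic compound that activates FXR, the nuclear receptor for bile acids. It was given by gavage at 100 mg/kg/day, starting 2 days ahead of surgery and continued for 5 days afterwards. GW4064 in sham-operated mice is not analysed here, so the compound is compared only within ligated mice. Nothing in the labels ties the arrays of a group to separate animals, and each p-value therefore reflects the scatter of these samples alone, which may be technical.

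Values are MAS5 signals on a linear scale, and changes are differences of log2(signal + 4), tested with limma over 13575 probe sets. The filter removed the lowest 40% of probe sets by mean log2 signal, which corresponds to a signal of 37.1, called the floor below. Where a gene had several probe sets, the one with the highest mean stood for it. The 18S 5′ control probe set read 67.3 to 88.7 in both sham arrays and BDL_Vehicle replicate 1, and 8.6 to 13.3 in the other arrays, so this difference moved with GW4064 treatment and with BDL_Vehicle replicate 2. The ratio of 3′ to 5′ actin signal was 1.73 in Sham_Vehicle replicate 2 and 1.09 to 1.22 in the other arrays. The ileal genes Fabp6, Slc10a2 and Fgf15 were all above the filter, and Fabp6 gave signals of 2620.5 to 6691.3.

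No member gene passed an adjusted p of 0.05 in limma in any of the 3 comparisons. In the ligation comparison (BDL_Vehicle against Sham_Vehicle) 0 of 19 member genes were called, beside 0.0295% of all probe sets tested, and 1 was higher and 0 lower at an unadjusted p under 0.05, beside 2.95% and 3.06% of all genes. In the GW4064 comparison (BDL_GW4064 against BDL_Vehicle) 0 of 19 were called, beside 0.0516% of all probe sets, and 4 were higher and 0 lower at an unadjusted p under 0.05, beside 5.06% and 2.41%. In the comparison of BDL_GW4064 with Sham_Vehicle 0 were called, beside 0.0368%, and 2 were higher and 1 lower at that level, beside 7.15% and 7.08%. The values that follow are therefore descriptions of 6 arrays. They include 7 member genes for which both GW4064 arrays lay above both BDL_Vehicle arrays and 1 for which both lay below, where 19.1% and 16.7% of all genes did so.

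**Figure D1:**
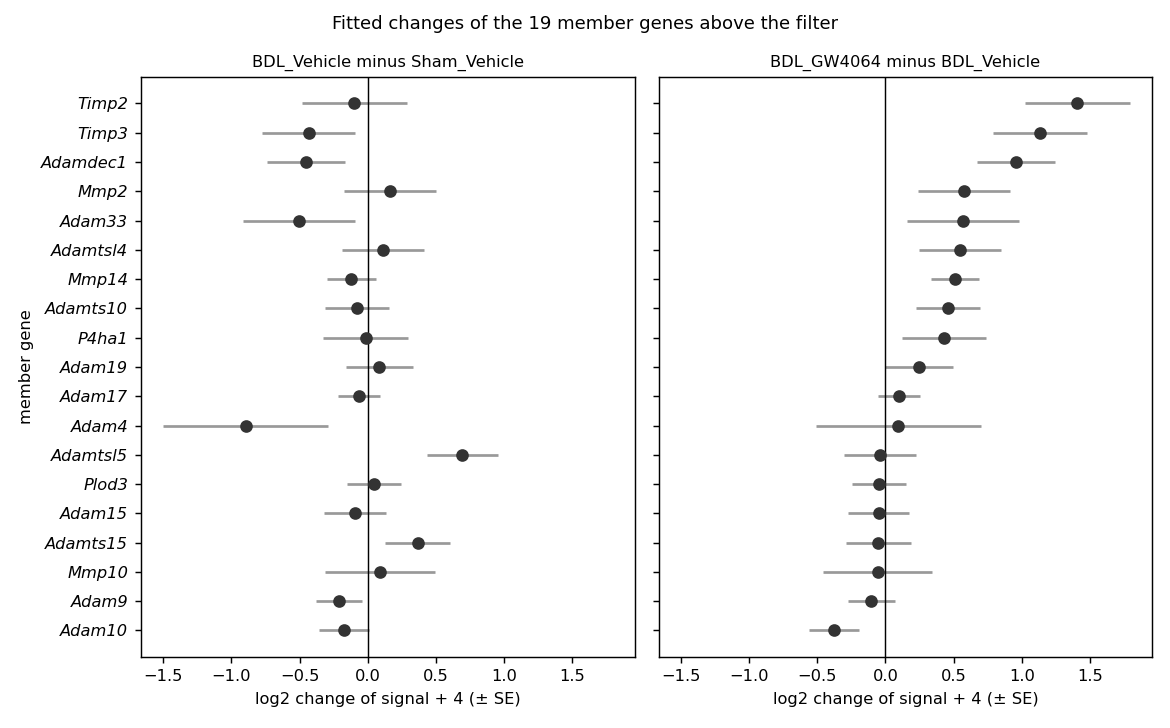
Fitted log2 change of signal + 4 (x axis) with its standard error for each of the 19 member genes above the filter (y axis), for ligation on the left and for GW4064 in ligated mice on the right. Timp2, Timp3 and Adamdec1 have the highest changes with GW4064, 1.41, 1.13 and 0.96, and no point passed the adjusted threshold in either panel.

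Of the 4 tissue inhibitors Timp2 and Timp3 were above the filter, and their GW4064 changes were the 2 largest among the 19 member genes. Timp2, which blocks metalloproteinases and also takes part in the activation of Mmp2 at the cell surface, had signals of 63.2 and 68.6 in Sham_Vehicle, 60.3 and 62.3 in BDL_Vehicle, and 105.0 and 271.2 in BDL_GW4064. Both GW4064 arrays lay above the other 4 arrays, and replicate 2 was far above replicate 1. GW4064 replicate 2 was also the array in which 10 smooth muscle markers summed to a signal of 12926.9, while the other 5 arrays gave 1635.2 to 2173.7. The GW4064 change was 1.41 ± 0.39 on the log2 scale (SE, n = 2 arrays a group), or 2.65-fold, with a limma adjusted p of 0.394. Without GW4064 replicate 2 the change was 0.74 (limma adjusted p = 0.661), and without GW4064 replicate 1 it was 2.07 (limma adjusted p = 0.0322), the only setting that left out an array and called a member gene in this comparison. The size of the Timp2 change thus rested on which GW4064 array was used, and its direction did not.

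Other probe sets of Timp2 gave the same order of arrays. The probe set 1433662_s_at read 68.7 and 67.6 in Sham_Vehicle, 51.0 and 63.0 in BDL_Vehicle and 116.3 and 222.3 in BDL_GW4064, a GW4064 change of 1.44 ± 0.30 (SE; limma adjusted p = 0.268). The probe set 1460287_at read 71.1 and 44.0, then 55.2 and 51.8, then 86.6 and 193.7 in the same order of groups, a change of 1.22 ± 0.38 (SE; limma adjusted p = 0.461). Of the 3 probe sets below the filter, 1420924_at read 44.1 and 71.6 in BDL_GW4064 and at most 35.4 in the other arrays, so it was at least 1.47-fold higher than in BDL_Vehicle. In that calculation a group whose arrays both lie below the floor is set to the floor. The probe set 1450040_at read 21.2 and 65.1 with GW4064 against 6.4 to 12.0 elsewhere, and 1437081_at did not exceed 1.0 in any array. Thus 5 of 6 probe sets had both GW4064 arrays on top, and these probe sets share 1 gene and 1 set of RNA samples.

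Timp3, an inhibitor that stays bound to the matrix and also blocks several Adam and Adamts proteases, had signals of 55.6 and 69.3 in Sham_Vehicle, 50.5 and 39.9 in BDL_Vehicle, and 71.4 and 148.1 in BDL_GW4064. The 3 groups did not overlap, with BDL_Vehicle lowest and BDL_GW4064 highest, although GW4064 replicate 1 was close to the higher sham array. The GW4064 change was 1.13 ± 0.34 (SE, n = 2 arrays a group), or 2.19-fold, with a limma adjusted p of 0.443, and the ligation change was -0.43 ± 0.34 (SE; limma adjusted p = 0.825). Without GW4064 replicate 2 the GW4064 change was 0.62, and without replicate 1 it was 1.64 (limma adjusted p = 0.76 and 0.142). The probe set 1449335_at read 28.4, 60.4, 20.8 and 38.3 in the 4 vehicle arrays and 88.8 and 105.3 with GW4064, a change of 1.64 ± 0.40 (SE; limma adjusted p = 0.341). Its 4 vehicle arrays averaged under the floor on the log2 scale, so it passed the filter through the GW4064 arrays. Its change therefore describes these arrays and adds no support for Timp3. For this probe set the GW4064 arrays lay closer together than for the one that stood for the gene. The probe set 1419088_at read 35.4 to 42.5 with vehicle and 59.8 and 101.0 with GW4064, a change of 1.02 ± 0.29 (SE; limma adjusted p = 0.419), and 1449334_at, below the filter, read 40.5 and 69.5 against at most 36.1. All 4 Timp3 probe sets had both GW4064 arrays above the 4 vehicle arrays.

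**Figure D2:**
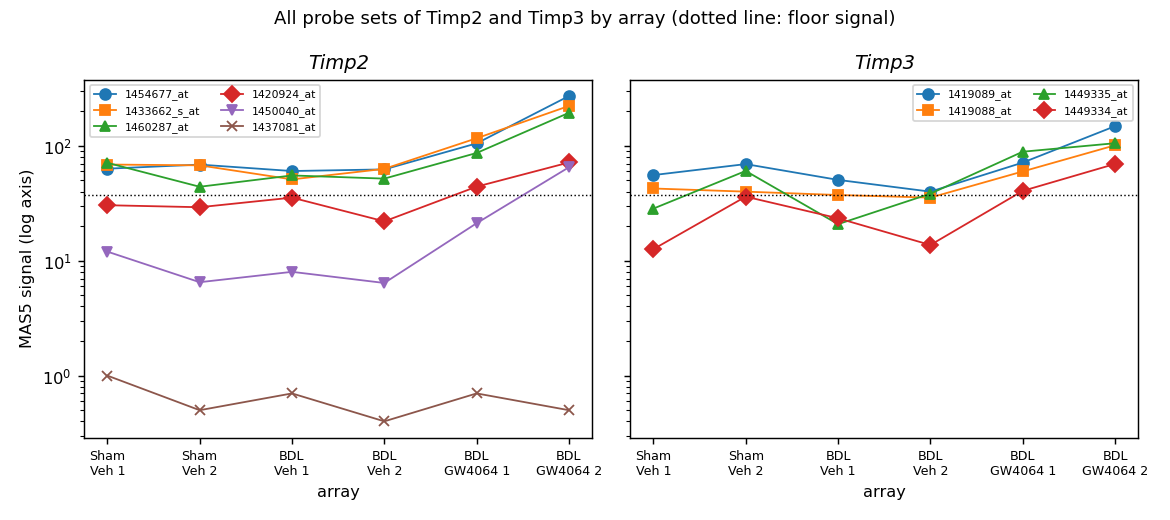
MAS5 signal on a log axis (y axis) of every probe set of Timp2 and Timp3 in each of the 6 arrays (x axis), with the dotted line at the floor of 37.1. The GW4064 arrays are highest for 5 of 6 Timp2 probe sets and for all 4 Timp3 probe sets, and lines join arrays only to aid the eye, since arrays have no order.

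The other 2 inhibitors stayed under the floor in every array. Timp1, which is made by fibroblasts and many other cells on inflammatory stimulation, read 25.7 and 19.2 in Sham_Vehicle, 8.5 and 19.6 in BDL_Vehicle, and 24.4 and 27.7 in BDL_GW4064. Timp4, an inhibitor best known from heart and fat, read 5.6 to 23.1 over its 2 probe sets. Neither gene gave a value on which a fold could be based.

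The stretch upstream of the start site is printed for the 2 inhibitors with the largest changes and for Mmp14, the protease of the cell surface that showed the next clear separation of arrays, so that their base composition can be set beside that of the metalloproteinase cluster below. Sequences come from RefSeq on build GRCm38.p6 and run 5′ to 3′ on the strand of the gene over the 250 bases before the start. Capitals mark a GC box (GGGCGG on either strand). Timp2 lies at chr11:118355412-118355661 on the minus strand, Timp3 at chr10:86300162-86300411 on the plus strand and Mmp14 at chr14:54431348-54431597 on the plus strand.
Timp2: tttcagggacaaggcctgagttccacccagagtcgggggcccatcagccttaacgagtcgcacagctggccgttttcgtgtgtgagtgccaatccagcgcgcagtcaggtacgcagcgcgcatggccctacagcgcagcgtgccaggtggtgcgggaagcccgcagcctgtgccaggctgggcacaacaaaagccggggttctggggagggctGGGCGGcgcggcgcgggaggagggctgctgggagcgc
Timp3: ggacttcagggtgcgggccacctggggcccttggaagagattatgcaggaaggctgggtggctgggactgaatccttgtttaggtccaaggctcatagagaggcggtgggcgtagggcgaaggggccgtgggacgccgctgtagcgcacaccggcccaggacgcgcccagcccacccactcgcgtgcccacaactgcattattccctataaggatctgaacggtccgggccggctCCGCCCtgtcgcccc
Mmp14: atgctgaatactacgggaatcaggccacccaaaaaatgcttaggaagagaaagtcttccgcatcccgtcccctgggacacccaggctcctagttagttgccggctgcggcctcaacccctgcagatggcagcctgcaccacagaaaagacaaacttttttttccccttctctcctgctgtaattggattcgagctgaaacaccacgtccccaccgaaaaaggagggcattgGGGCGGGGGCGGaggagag

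These 3 windows are rich in G and C, with 68.0%, 65.6% and 55.2% of their bases. Timp2 and Timp3 each hold 1 GC box, with its first base 37 and 15 bases before the start, and Mmp14 holds 2 side by side. None holds the AP-1 word TGANTCA or the TATA word TATAAA. Across the 4 Timp genes, 3 had a GC box and 0 had the AP-1 word. A GC box was found in 32.7% of the 32851 windows of the table and in 17 of 40 windows of the 36 member genes that matched an entry. Members were also searched for the pair of 6-base words AGGTCA and TGACCT separated by 1 base, the inverted repeat that FXR is known to bind. It was found in 2 windows of the whole table and in 0 member windows, which says only that these letters are not in these 250 bases.

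Among the 3 metalloproteinases above the filter, Mmp14 and Mmp2 had both GW4064 arrays above both BDL_Vehicle arrays. Mmp14, a membrane-bound collagenase that activates the Mmp2 precursor together with Timp2, read 100.8 and 97.2 in Sham_Vehicle, 92.6 and 89.0 in BDL_Vehicle, and 140.0 and 122.3 in BDL_GW4064. The GW4064 arrays were the highest and the BDL_Vehicle arrays the lowest, with no overlap among the 3 groups and little distance within each. The GW4064 change was 0.51 ± 0.18 (SE, n = 2 arrays a group), or 1.42-fold, with a limma adjusted p of 0.535. It was 0.60 without GW4064 replicate 2 and 0.41 without replicate 1, so it depended less on the choice of array than the Timp2 change did. The second Mmp14 probe set, 1416572_at, was below the filter and read 47.1 and 47.5 with GW4064 against 19.0 to 28.2 elsewhere, at least 1.25-fold higher than in BDL_Vehicle.

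Mmp2, a gelatinase made mainly by mesenchymal cells, was read by 2 probe sets above the filter. The probe set that stood for the gene, 1439364_a_at, read 51.1 and 98.3 in Sham_Vehicle, 84.1 and 75.9 in BDL_Vehicle, and 153.9 and 95.5 in BDL_GW4064, a GW4064 change of 0.58 ± 0.34 (SE; limma adjusted p = 0.795). The GW4064 arrays lay above BDL_Vehicle but overlapped Sham_Vehicle. That change was 0.25 without GW4064 replicate 1 and 0.91 without replicate 2. The probe set 1416136_at read 74.5 and 74.7, then 56.4 and 58.5, then 151.4 and 87.2, a GW4064 change of 0.95 ± 0.27 (SE; limma adjusted p = 0.415). By this probe set the 3 groups did not overlap. The probe sets differed in sign for ligation, with 0.16 for the first and -0.36 for the second. In both, GW4064 replicate 1 was the highest of the 6 arrays, whereas for Timp2 and Timp3 it was replicate 2.

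**Figure D3:**
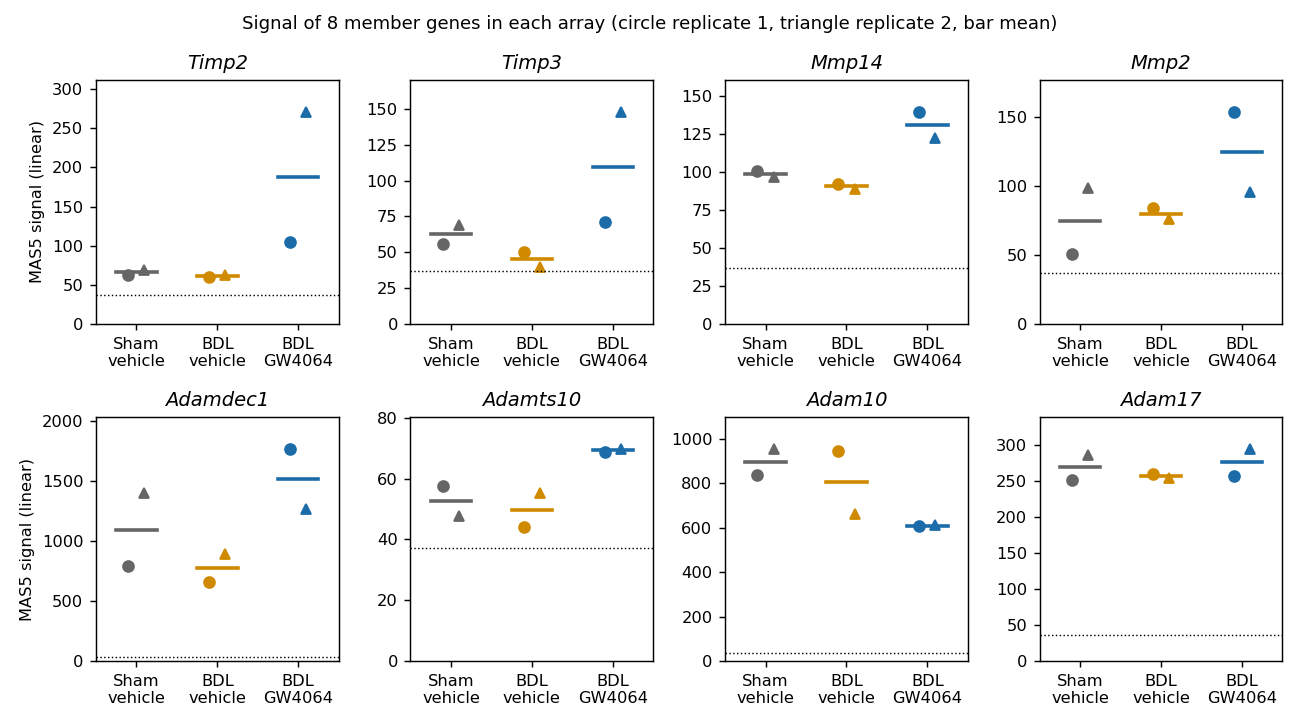
MAS5 signal (y axis, linear, from 0) of 8 member genes in each array by group (x axis), with circles for replicate 1, triangles for replicate 2, bars for group means and a dotted line at the floor of 37.1. The GW4064 arrays are the highest for Timp2, Timp3, Mmp14 and Adamts10 and the lowest for Adam10, and the larger GW4064 array is replicate 2 for Timp2 and replicate 1 for Mmp2.

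Most other metalloproteinases were at low signal. Of 12 secreted members 9 never exceeded the floor, and of 5 membrane members 2 never did. Mmp10, a stromelysin of epithelium and macrophages, was the other secreted member above the filter and read 59.6 and 124.5 in Sham_Vehicle, 77.6 and 109.2 in BDL_Vehicle, and 120.3 and 64.6 in BDL_GW4064, with all groups overlapping. Mmp9, the gelatinase of neutrophils and macrophages, reached 37.4 in 1 sham array and read 12.0 to 30.5 in the other arrays by that probe set. Mmp8, the neutrophil collagenase, read 1.7 to 14.7, and Mmp13, a collagenase of mesenchymal cells, read 10.1 to 24.2. The 7 neutrophil markers measured, among them S100a8, S100a9 and Mpo, were all below the filter too, with no single signal above 31.1. Mmp3, a stromelysin of fibroblasts, read 7.3 to 19.5, and the macrophage elastase Mmp12 read 3.3 to 15.2. Mmp1a, Mmp1b, Mmp11, Mmp19 and Mmp20 stayed between 0.6 and 21.2. Mmp16 and Mmp23 peaked at 32.3 and 33.0. Mmp24 reached 38.2 and Mmp17 43.7, the latter in GW4064 replicate 2.

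Several collagenase and stromelysin genes among the members lie in 1 cluster on mouse chromosome 9. Among the RefSeq windows, 8 member genes (Mmp1a, Mmp1b, Mmp3, Mmp8, Mmp10, Mmp12, Mmp13 and Mmp20) lie between positions 7272264 and 7628230, a span of 356 kb on GRCm38.p6. The AP-1 word TGANTCA, which reads as itself on either strand, was in a window of 7 of these genes, the TATA word in 6 and a GC box in 0. Windows of the whole table held these words in 6.75%, 12.4% and 32.7% of cases. Of these 8 genes only Mmp10 was above the filter in these arrays. Its window is printed with those of Mmp13 and Mmp3, which share the layout and stayed under the floor, so that the measured gene can be compared with its neighbours. Capitals mark the AP-1 and TATA words. Mmp13 lies at chr9:7272264-7272513, Mmp3 at chr9:7445572-7445821 and Mmp10 at chr9:7502092-7502341, all on the plus strand.
Mmp13: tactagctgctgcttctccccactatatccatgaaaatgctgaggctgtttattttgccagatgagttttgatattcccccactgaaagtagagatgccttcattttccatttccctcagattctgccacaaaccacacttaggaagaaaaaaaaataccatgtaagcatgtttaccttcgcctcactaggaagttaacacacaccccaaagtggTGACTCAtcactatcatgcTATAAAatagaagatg
Mmp3: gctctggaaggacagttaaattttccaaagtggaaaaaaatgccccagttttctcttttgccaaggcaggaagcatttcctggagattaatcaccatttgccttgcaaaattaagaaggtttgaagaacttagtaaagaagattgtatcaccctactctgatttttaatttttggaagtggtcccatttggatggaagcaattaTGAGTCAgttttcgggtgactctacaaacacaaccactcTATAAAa
Mmp10: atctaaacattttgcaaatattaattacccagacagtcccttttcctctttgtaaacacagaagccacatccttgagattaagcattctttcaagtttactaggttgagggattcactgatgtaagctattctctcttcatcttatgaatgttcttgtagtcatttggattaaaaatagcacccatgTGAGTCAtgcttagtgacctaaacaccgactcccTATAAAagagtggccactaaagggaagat

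The first base of the AP-1 word is 35, 46 and 63 bases before the start in Mmp13, Mmp3 and Mmp10, and that of the TATA word 16, 7 and 29 bases. The share of G and C in these windows is 40.4%, 37.6% and 37.2%, below that of the Timp2, Timp3 and Mmp14 windows. The motifs searched do not overlap each other in these windows. A match describes letters and was not tied to a difference between the groups.

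Adamdec1, a secreted Adam-like protease without the transmembrane part of the family that is made by gut macrophages and fibroblasts, read 793.3 and 1403.3 in Sham_Vehicle, 663.9 and 895.9 in BDL_Vehicle, and 1770.3 and 1271.4 in BDL_GW4064. The GW4064 arrays lay above both BDL_Vehicle arrays, while the sham arrays overlapped both ligated groups. The GW4064 change was 0.96 ± 0.29 (SE, n = 2 arrays a group), or 1.94-fold, with a limma adjusted p of 0.436. Leaving out GW4064 replicate 2 or replicate 1 gave 1.19 or 0.72, and with the 18S array set as a term the change was 0.74. The difference between the sham arrays, 0.82 on the log2 scale, was close in size to the GW4064 change, and the higher sham array is the one with the raised actin ratio.

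The sheddases of the plasma membrane overlapped between BDL_Vehicle and BDL_GW4064 by the probe set that stood for each gene, apart from Adam10. Adam17, which releases tumour necrosis factor and ligands of the epidermal growth factor receptor, read 252.6 and 286.5 in Sham_Vehicle, 259.7 and 255.4 in BDL_Vehicle, and 258.1 and 295.1 in BDL_GW4064, with all groups overlapping. Its other probe sets differed in direction, since 1421859_at read 149.3 and 138.6 in BDL_Vehicle against 114.4 and 105.8 in BDL_GW4064, and 1421857_at read 131.3 and 129.1 against 136.0 and 131.2. Adam9 read 344.6 and 415.8 in Sham_Vehicle, 365.5 and 292.1 in BDL_Vehicle, and 302.7 and 305.2 in BDL_GW4064. For Adam9 the GW4064 arrays lay between the BDL_Vehicle arrays and below both sham arrays. The Adam15 probe set that stood for the gene read 87.1 to 130.3 over the 6 arrays, and its GW4064 arrays held both the lowest and the highest value.

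Adam10, the main sheddase of Notch receptors and of E-cadherin, was the 1 of the 19 member genes above the filter with both GW4064 arrays below both BDL_Vehicle arrays, but only by its brightest probe set. That probe set, 1428103_at, read 837.4 and 954.0 in Sham_Vehicle, 946.5 and 663.0 in BDL_Vehicle, and 606.6 and 611.7 in BDL_GW4064. The GW4064 arrays were the lowest, with BDL_Vehicle replicate 2 next to them. The GW4064 change was -0.38 ± 0.18 (SE; limma adjusted p = 0.723), and with the 18S array set as a term, where it rests on BDL_Vehicle replicate 2 as the control, it was -0.12. When single arrays were left out it ranged from -0.63 to -0.12. The probe set 1450105_at read 385.4 and 321.7, then 449.8 and 407.7, then 420.7 and 395.3, and 1450104_at read 180.7 and 109.5, then 207.7 and 225.5, then 230.3 and 200.8. By both of these the ligated groups overlapped each other and lay above sham. Against sham, BDL_GW4064 thus differed by -0.55 ± 0.18 in the first probe set and by 0.60 ± 0.24 in 1450104_at (SE; limma adjusted p = 0.231 and 0.288), opposite in sign for 1 gene.

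The other widely expressed Adam genes overlapped between BDL_Vehicle and BDL_GW4064 or stayed low. Adam19, a metalloprotease of mesenchyme and macrophages, read 59.0 and 53.4 in Sham_Vehicle, 49.7 and 71.6 in BDL_Vehicle, and 67.1 and 76.3 in BDL_GW4064. Adam33, found mainly in smooth muscle and fibroblasts, read 81.5 and 44.7, then 50.1 and 34.3, then 43.9 and 91.0, with the widest values in Sham_Vehicle replicate 1 and GW4064 replicate 2. Adam8, a gene of myeloid cells, reached 37.3 in 1 sham array and read 16.6 to 29.7 in the others, and Adam12 and Adam28 stayed at or below 29.4. The 3 neural members Adam11, Adam22 and Adam23 read at most 17.0. Of the 13 members of the reproductive tract, 12 never exceeded the floor (Adam1a, Adam1b, Adam2, Adam3, Adam5, Adam7, Adam18, Adam21, Adam24, Adam25, Adam26a and Adam34, with a highest signal of 20.1). The exception was Adam4, which read 85.0 and 49.4 in Sham_Vehicle, 51.7 and 20.7 in BDL_Vehicle, and 67.0 and 18.1 in BDL_GW4064. In each group replicate 1 was the higher, and the difference of replicate 2 from replicate 1 was -1.68 on the log2 scale within BDL_GW4064, larger in size than the difference between any pair of group means.

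Of 9 Adamts and Adamts-like genes 4 were above the filter. Adamts10, a protease that binds fibrillin microfibrils, read 57.5 and 47.7 in Sham_Vehicle, 44.1 and 55.1 in BDL_Vehicle, and 68.7 and 69.7 in BDL_GW4064. Both GW4064 arrays lay above the other 4, with a GW4064 change of 0.46 ± 0.23 (SE; limma adjusted p = 0.755). Adamtsl4, a matrix protein without protease activity that also binds fibrillin, read 40.6 and 53.5, then 62.6 and 40.9, then 63.6 and 90.5. Its GW4064 arrays were again the highest 2, though replicate 1 exceeded BDL_Vehicle replicate 1 by only a small margin, and the change was 0.55 ± 0.30 (SE; limma adjusted p = 0.775). When single arrays were left out it ranged from 0.26 to 0.83. Adamts15, a proteoglycan-cutting protease, read 60.6 to 107.4 with BDL_GW4064 inside the range of BDL_Vehicle.

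Among the probe sets that stood for a gene, Adamtsl5 gave the one ligation value with an unadjusted p under 0.05. The Adam10 probe set 1450104_at, which did not stand for its gene, also had one, at 0.61 ± 0.24 (SE; limma unadjusted p = 0.0357, adjusted p = 0.751). Adamtsl5, a secreted relative of the family without a protease domain, read 112.5 and 73.4 in Sham_Vehicle, 122.8 and 181.9 in BDL_Vehicle, and 149.2 and 141.5 in BDL_GW4064. Both ligated groups lay above sham, and the GW4064 arrays fell between the BDL_Vehicle arrays. The ligation change was 0.69 ± 0.26 (SE, n = 2 arrays a group), or 1.62-fold, with a limma adjusted p of 0.751, and it ranged from 0.40 to 0.99 when single arrays were left out. Below the filter, Adamts1, which cuts versican and aggrecan, read 60.5 and 44.5 with GW4064 against 13.7 to 31.2 in the 4 vehicle arrays, at least 1.36-fold higher than in BDL_Vehicle. Adamts4, Adamts5, Adamts7 and Adamts8 stayed at or below 25.6.

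The crosslinking enzymes outside the cell were under the filter in all 4 members measured. Lox, which oxidises lysines of collagen and elastin, peaked at 30.1 in GW4064 replicate 2, with 10.4 to 15.5 in the 4 vehicle arrays by the same probe set. Loxl1, a relative needed for elastic fibres, read 31.8 and 14.3 in Sham_Vehicle, 10.4 and 15.8 in BDL_Vehicle, and 25.0 and 55.8 in BDL_GW4064. Only the last of these exceeded the floor, so no group mean could be set against another. Loxl3 read 28.6 to 36.9 and Loxl4 at most 37.1, both without an array above the floor.

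Of the 5 hydroxylase genes that modify collagen inside the cell, Plod3 and P4ha1 were above the filter. Plod3, a lysyl hydroxylase that also adds sugars to hydroxylysine, read 179.9 and 223.6 in Sham_Vehicle, 239.1 and 179.8 in BDL_Vehicle, and 210.3 and 191.3 in BDL_GW4064, with all groups overlapping. Plod1, the lysyl hydroxylase of collagen helices, was below the filter and read 16.1 and 37.8, then 26.6 and 35.7, then 60.9 and 66.1. The 2 GW4064 arrays lay above the floor and above the other 4 arrays, at least 1.64-fold higher than in BDL_Vehicle. Plod2, the hydroxylase of collagen telopeptides, exceeded the floor only in GW4064 replicate 2, at 49.4. P4ha1, a catalytic subunit of prolyl 4-hydroxylase, read 41.9 and 49.1, then 45.9 and 43.8, then 83.0 and 45.6, so GW4064 replicate 1 alone stood out. P4ha2, its relative, read 6.4 to 23.5.

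The GW4064 arrays differed from each other in both directions. Signal was higher in replicate 2 for 11 of the 19 member genes, by 1.34 on the log2 scale for Timp2, 1.01 for Timp3 and 0.99 for Adam33. It was higher in replicate 1 for 8, and the difference of replicate 2 from replicate 1 was -0.86 for Mmp10, -0.81 for P4ha1, -0.67 for Mmp2 and -0.48 for Adamdec1. Mmp14 differed by -0.19, and Adamts10, Adam10 and Adam9 by only 0.02, 0.01 and 0.01. These differences have no test, since each is between single arrays.

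Markers of other cell types moved with GW4064 and with 1 of its arrays. The 10 fibroblast markers had a summed signal of 1106.5 to 1441.3 in BDL_Vehicle, 1133.2 to 1774.2 in Sham_Vehicle and 2798.5 to 3959.1 in BDL_GW4064, and all 10 had a higher mean with GW4064 than in BDL_Vehicle. Of the 10 smooth muscle markers 8 were above the filter, and Cnn1 and Des passed it through GW4064 replicate 2 alone. The sum of all 10 in GW4064 replicate 1, 1989.5, lay within the range of the vehicle arrays, with Mylk as its largest part at 1078.6. In that array Acta2, Tagln and Myh11 read 479.0, 143.6 and 92.5, against at most 460.7, 117.7 and 82.0 with vehicle. Actg2, Cnn1, Des, Smtn and Mylk did not exceed the vehicle arrays there. In GW4064 replicate 2 Actg2 read 1786.2 and Des 839.3, against at most 119.5 and 34.5 elsewhere. The endothelial list summed to 333.3 to 460.9 with vehicle and 646.3 to 688.9 with GW4064, and the macrophage list to 1486.8 to 2335.6 and 2643.6 to 2883. Not every marker of these lists separated BDL_GW4064 from BDL_Vehicle. Pdgfrb and Thy1 of the fibroblast list and Cdh5 of the endothelial list overlapped. So did Adgre1, Cd163 and Lyz2 of the macrophage list, where Lyz2 was the largest part of the sum. Adgre1 read 49.3 to 71.1 with vehicle and 55.9 and 68.5 with GW4064. The 5 mesenteric adipose markers on the array summed to 1045.4 in GW4064 replicate 2 and to 203.6 to 522.2 in the other arrays, with Adipoq at 216.1 against at most 54.9. Retn, Lep and Cidec of that list did not follow, at 14.4, 6.6 and 143.0 there and up to 38.5, 9.2 and 180.3 elsewhere. The mesothelial markers differed among themselves. Below the filter, Upk3b, Msln and Wt1 read 97.3, 49.0 and 26.4 in that array and at most 12.8, 14.9 and 17.4 elsewhere. Krt19, the only one above the filter, read 4134.6 there and 3885.9 to 4702.9 elsewhere. The 9 enterocyte markers measured summed to 35669.6 to 40484.6 over the 6 arrays. Vil1 and Cdh1 were lower with GW4064 than in BDL_Vehicle without overlap, where 16.7% of all genes were, and the others overlapped. Lct was lower and Krt20 higher in both ligated groups than in Sham_Vehicle. No marker of any list was at 0 in any array. In RNA of whole tissue, more cells of a type and more RNA per cell cannot be told apart, and the part of these cell types in the values of Timp2, Timp3 and the other members was not tested. GW4064 replicate 2 had the highest smooth muscle and adipose sums. Without it, the GW4064 changes were 0.74 for Timp2, 0.62 for Timp3, 0.60 for Mmp14 and 1.19 for Adamdec1.

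**Figure D4:**
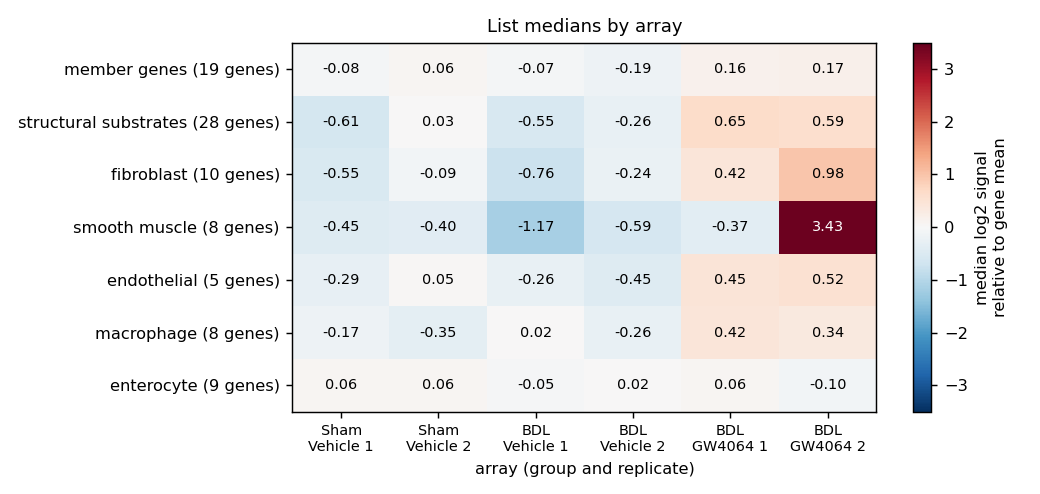
Median log2 signal relative to each gene's mean over the arrays (colour and printed value), for the member genes above the filter, the structural substrates and lists of cell type markers (y axis) in each of the 6 arrays (x axis). The smooth muscle list stands at 3.43 in GW4064 replicate 2 and at -0.37 in replicate 1, while the member genes stand at 0.17 and 0.16. Cnn1 and Des of the smooth muscle list passed the filter through GW4064 replicate 2 alone. The close member medians cover differences in both directions, with 11 genes higher in replicate 2 and 8 in replicate 1. Timp2 differed by 1.34 and Adam4 by -1.68.

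As a whole the 19 member genes above the filter had a median GW4064 change of 0.25, beside 0.00 over all genes above the filter, with 12 above zero and 7 below. A gene high only with GW4064 can pass the filter through that group, so these counts describe the genes that passed and nothing more. Their median ligation change was -0.08, beside -0.01 over all genes, with 7 above zero and 12 below. In the ligation comparison 1 member gene was higher and 3 were lower without overlap, where 18.1% and 19.7% of all genes were so. The 3 lower ones were Timp2, Timp3 and Mmp14, with changes of -0.10, -0.43 and -0.12 (limma adjusted p = 0.966, 0.825 and 0.905). Other probe sets of these genes differed on this. Timp2 by 1433662_s_at and Timp3 by 1419088_at were also lower without overlap. Timp2 by 1460287_at, Timp3 by 1449335_at and Mmp14 by 1416572_at, the last below the filter, overlapped between BDL_Vehicle and Sham_Vehicle. The ligation and GW4064 comparisons share the BDL_Vehicle arrays, so a low value in these enters both with opposite sign.

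In the comparison of BDL_GW4064 with Sham_Vehicle the changes do not use those arrays, although the SE, the p-values and the filter do. There the member genes had a median change of 0.33, beside 0.01 over all genes, and 8 were higher and 2 lower without overlap, where 25.0% and 24.0% of all genes were so. Timp2 differed by 1.31 ± 0.39 (SE; limma adjusted p = 0.205) and by 0.64 without GW4064 replicate 2, and Timp3 by 0.70 ± 0.34 (SE; limma adjusted p = 0.367) and by 0.19 without that array. Mmp14 differed by 0.39 ± 0.18, Adamtsl4 by 0.66 ± 0.30 and Adamtsl5 by 0.65 ± 0.26 (SE; limma adjusted p = 0.331, 0.332 and 0.289). The remaining higher ones were Adamts10, Adamts15 and Adam19, with changes of 0.38, 0.31 and 0.33. The lower ones were Adam10, by its brightest probe set, and Adam9, which differed by -0.31 ± 0.17 (SE; limma adjusted p = 0.404). All BDL_GW4064 arrays were in the low 18S set and all Sham_Vehicle arrays in the high one. With that set as a term, which then rests on the BDL_Vehicle arrays, the changes against sham were 1.27 for Timp2, 1.01 for Timp3, 0.44 for Mmp14 and 1.23 for Adamtsl4. They were 0.10 for Adamtsl5, 0.08 for Adamts10, 0.70 for Adamts15 and -0.04 for Adam10, and Adam9 stood at 0.01 and Adam19 at -0.16.

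Matrix proteins are the substrates of these enzymes. Of 41 structural matrix genes listed, 28 were above the filter, and all 28 had a positive GW4064 change, with a median of 0.98, or 0.96 with groups under the floor set to it, beside 0.00 over all genes. For 26 of them both GW4064 arrays lay above both BDL_Vehicle arrays, where 19.1% of all genes did so. Fibronectin (Fn1) rose by 1.90 ± 0.16 (SE; limma adjusted p = 0.0094) and was the only one called, while Col1a2, a chain of type I collagen, had a change of 1.43 ± 0.26 (SE; limma adjusted p = 0.209). Eln, the gene of elastin, and Hspg2, the gene of perlecan, overlapped. A gene high only with GW4064 can pass the filter through that group, so these counts describe the genes that passed. Below the filter, Fmod was lower with GW4064 than in BDL_Vehicle without overlap, and Mfap2, Mfap4, Mfap5, Tnxb and Thbs2 overlapped. Emilin1, Vcan, Lama2, Lama4, Nid2 and Postn were higher without overlap. Several of these genes are also on the fibroblast list, which had the higher signals described above.

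Genes that fold and trim collagen make up the next group. Of the 13 on the array 8 were above the filter, 7 of them with a positive GW4064 change and 0 called, and their median was 0.29. Pcolce, which enhances the removal of the collagen C-propeptide, read 35.5 and 38.9 in Sham_Vehicle, 42.8 and 34.5 in BDL_Vehicle, and 56.7 and 94.2 in BDL_GW4064, a change of 0.86 ± 0.30 (SE; limma adjusted p = 0.535). Serpinh1, the collagen chaperone, and Crtap, a part of the prolyl 3-hydroxylase complex, had changes of 0.34 and 0.55.

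The plasminogen system and other matrix proteases with their inhibitors had 19 of 31 genes above the filter, 13 with a positive and 6 with a negative GW4064 change, 0 called, and a median of 0.13, or 0.10 with groups under the floor set to it. Serping1, the C1 inhibitor, had a change of 1.23 ± 0.19, and Ctsl, the lysosomal protease cathepsin L, 1.18 ± 0.22 (SE; limma adjusted p = 0.132 and 0.208). Serpina3n, a secreted protease inhibitor, read 33.2 and 25.8 in Sham_Vehicle, 22.0 and 28.6 in BDL_Vehicle, and 87.1 and 108.1 in BDL_GW4064. All 4 vehicle arrays were under the floor, so it passed the filter through the GW4064 arrays alone. It was at least 2.46-fold higher with GW4064 than in BDL_Vehicle, which describes these arrays and is not a test result. Plat, the tissue plasminogen activator, was under the floor in both BDL_Vehicle arrays, at 26.1 and 26.1. It read 64.9 and 99.9 with GW4064, at least 2.06-fold higher. Its 4 vehicle arrays averaged under the floor on the log2 scale, so Plat also passed the filter through the GW4064 arrays. The lowest was Mme, the peptidase neprilysin, at -0.69 ± 0.18 (SE; limma adjusted p = 0.364).

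The substrates that Adam proteases shed had 13 of 15 genes above the filter, with 6 positive and 7 negative GW4064 changes, 0 called, and a median of -0.05. Genes for the supply of and response to transforming growth factor beta had 11 of 18 above the filter, with 9 positive and 2 negative GW4064 changes, 0 called, and a median of 0.19. For ligation all 11 were negative, with a median of -0.26, or -0.21 with groups under the floor set to it, and 0 called. Over all genes the median was -0.01 and 47.9% were above zero, and 6 of the 11 were lower without overlap, where 19.7% of all genes were.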

How the data were processed

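The deposited values were intensity values, 1 per probe set and array on a linear scale, which the submitters' processing notes name as MAS5 signals. The sources used here give no detection calls, version or settings. With the top and bottom 2% of signals removed, the mean of each array was 200.1, so arrays share a scale. Arrays have no count depth, and 2 per group limit the precision. The members and the gene and marker lists were chosen with earlier results of these data known.

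Of 22690 probe sets, 64 controls were left out, 20380 had 1 gene in the platform annotation, 691 several and 1555 none. Signals were analysed as log2(signal + 4), so folds of dim genes are understated. Probe sets in the lowest 40% by mean were left out. limma 3.58.1 (R 4.3.3) was fitted to all 6 arrays with 1 mean per group and a variance trend, with 3 residual and 4.71 prior degrees of freedom, and Benjamini-Hochberg adjustment over 13575 probe sets at 0.05. The script was tested on simulated data. Changes with SE and adjusted p are given, per comparison, for up to 12 member genes with the smallest p among those above the filter whose arrays did not overlap. Other members are given by signals. Pathway genes named with values were chosen after their values were seen. Promoters were matched by symbol to RefSeq windows (GRCm38.p6), which held 36 of 65 members. Alternatives tried were normalisation, pseudocount, filter, variance prior, arrays in the fit, replicate block, 18S array set, array weights, mean over probe sets and leaving out each array.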

Additional observations from a re-analysis of the deposited data

How the results depend on the processing

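Of 115 alternative values for the counts of called member genes and their median changes, 108 kept their direction, call and size. Of 402 for single genes 397 kept direction and call, but 40 moved by over 1.5 times or changed sign, 11 of them with the 18S array set as a term and 24 without 1 array. The number of member genes called in the GW4064 comparison was 0 or 1 when single arrays were left out, and the 1 was Timp2 without GW4064 replicate 1 (limma adjusted p = 0.0322, range over all alternatives 0.0322 to 1). Against sham the range was also 0 to 1, with Timp2 again the 1 (limma adjusted p = 0.0453). Without GW4064 replicate 1 the calls over all probe sets in the GW4064 comparison went from 7 to 48. The median GW4064 change of the member genes was 0.13 without a filter (65 genes) and -0.047 with the filter at 60% (7 genes, among which Timp2 and Timp3 are not), and the median against sham was 0.21 and -4.91e-05. Signs reversed against sham for Adam9 (0.0065) and Adam19 (-0.16) when the 18S array set was a term, and for Adam10 (0.086) with the mean over probe sets. The cause of these differences was not tested. Adam10 has probe sets of opposite sign, and the filters change which genes enter. Replicate differences had correlations of 0.037, 0.094 and -0.12 between groups. With 1 such difference per group, these values cannot settle whether equal replicate numbers paired the samples. With replicate number as a block (replicate block) 0 member genes were called in each comparison and the calls over all probe sets were 4 with GW4064, 2 for ligation and 0 against sham, beside 7, 4 and 5. A crossed pairing of the ligated groups, chosen after seeing the data, called 37 probe sets and 1 member gene, Adamdec1 (limma adjusted p = 0.0369). Dim signal limits 46 of 65 members, which have no tested change.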
